A study of Rattus norvegicus with 6 samples.

Results

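Bdnf, Ntf3, Ntrk2, Ntrk3, Ngfr, Sort1 and Vgf were followed in the rat hippocampus. They code for 2 neurotrophins, 4 neurotrophin receptors and a peptide precursor that neurotrophins induce. The 7 genes were chosen by name among the 15168 named genes of the array, with earlier results of these data known. Every probe whose RefSeq accession belongs to any of them was taken, whatever its signal. This gave 11 of the 30367 probes on the array. Of these 11 probes, 10 probes of 6 genes had a signal well above background on 3 or more arrays and were tested, and the single Ngfr probe was left out of the tests.

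Messenger RNA was measured in hippocampal tissue of adult male rats of the SD (Sprague Dawley) strain on single-colour Agilent arrays, with 1 array per sample. The AD group (n = 3) had received Aβ1–42 oligomers, the aggregating peptide of Alzheimer plaques, into the cerebral ventricles. The Sham group (n = 3) had received the vehicle on both sides by the same route. All the rats had therefore been operated on, and no genetic change or drug is named for either group. The dose, the age and the interval to tissue collection are not given in the sources used here. The labels do not say from which animal each sample came, so the p-values below measure the spread between these samples. Whole tissue was used, so fewer cells of a type and less RNA per cell cannot be told apart.

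Neurotrophins are secreted as proneurotrophins and cut to mature growth factors that keep neurons alive and strengthen synapses. Mature BDNF and NT-3 act through the receptor tyrosine kinases TrkB and TrkC. The uncut forms bind p75NTR together with sortilin, a pairing best known for cell death and synapse weakening. In the hippocampus BDNF is released by activity and is needed for long-lasting synaptic potentiation, and it induces VGF, a granule protein that is itself cut into active peptides.

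The level of a probe is its log2 processed signal minus the 75th percentile of that array, and 0 therefore marks that percentile. Levels of different probes are not set against each other, because each probe binds with its own strength. The 75th percentile of the processed signal ran from 794 to 931 on the AD arrays and from 429 to 755 on the Sham arrays, and the share of probes with a signal well above background ran from 70.8% to 79.7%. The arrays were read in 3 scans, of which the first held the AD arrays, the second, on the same day, Sham replicates 1 and 2, and the third, on another day, Sham replicate 3. All 7 markers fixed for hippocampal excitatory neurons, among them Prox1, Camk2a and Neurod6, were well above background on all 6 arrays, and none of them was called.

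The regulatory sequence next to a start site is shown for Bdnf and Vgf because both genes are textbook targets of the factor CREB, which binds the letters TGACGTCA (the cAMP response element, CRE). Windows were matched for 4 of the 7 genes and not for Ntrk2, Ntrk3 and Ngfr. They are the 250 bases before an annotated transcript start in RefSeq, rat assembly GRCr8, written 5′ to 3′ on the gene's strand. Both strands were searched for the CRE, for the CRE-like letters TGACGTGA or TCACGTCA, and for the E-box CACGTG. Capitals mark the matches. The Vgf window is chr12:25277021-25277270 on the minus strand, and the Bdnf window is chr3:116637608-116637857 on the plus strand.
Vgf: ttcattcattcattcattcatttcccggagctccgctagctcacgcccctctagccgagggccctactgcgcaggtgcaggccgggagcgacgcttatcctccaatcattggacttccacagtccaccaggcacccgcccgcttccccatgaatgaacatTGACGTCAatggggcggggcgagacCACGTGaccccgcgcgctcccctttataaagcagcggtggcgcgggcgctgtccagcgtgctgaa
Bdnf: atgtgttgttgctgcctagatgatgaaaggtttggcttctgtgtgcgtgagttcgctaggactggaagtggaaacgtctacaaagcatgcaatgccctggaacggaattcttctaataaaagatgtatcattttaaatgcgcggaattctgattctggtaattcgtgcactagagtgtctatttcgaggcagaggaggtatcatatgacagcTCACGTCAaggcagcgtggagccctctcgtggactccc
Of 33469 windows of this length, 1.59% held a CRE, 0.35% held the CRE-like letters and 5.59% held the E-box. The Vgf window held 1 CRE, which began 90 bases before the start, and 1 E-box, which began 65 bases before it. Of the 6 Bdnf windows, 1 held a CRE-like match, which began 38 bases before the start. The windows of Ntf3 and Sort1, which with those of Bdnf and Vgf made 11 windows in all, held none of the 3 motifs. These matches are descriptions of the letters and show nothing about binding in these samples.

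One Ntrk2 probe was higher in AD, and it alone among the 10 tested neurotrophin probes passed limma's test at an adjusted p under 0.05, which makes 1 call of 10. The 2 other Ntrk2 probes, 1 of 2 Ntrk3 probes and 1 of 2 Sort1 probes were lower on all 3 AD arrays than on any Sham array and missed the threshold. The probes of the ligands Bdnf and Ntf3 and of Vgf overlapped between the groups. Over the whole array limma called 2815 of 22768 tested probes, which is 12.4% (4.15% higher in AD and 8.21% lower). The groups did not overlap for 5 of the 10 neurotrophin probes, of which 1 was higher and 4 were lower in AD. Over all tested probes this held for 39%, with 15.8% higher and 23.2% lower. Among the neurotrophin probes 5 of 10 had an unadjusted p under 0.05, against 31.3%. Their median change was -0.20 on the log2 scale, with 3 probes higher and 7 lower on average, and the median over all tested probes was -0.01. The median size of change, without its sign, was 0.25 for the neurotrophin probes and 0.23 over all tested probes. No neurotrophin probe reached a fold of 2, against 2.24% of all tested probes that did so with an unadjusted p under 0.05.

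**Figure D1:**
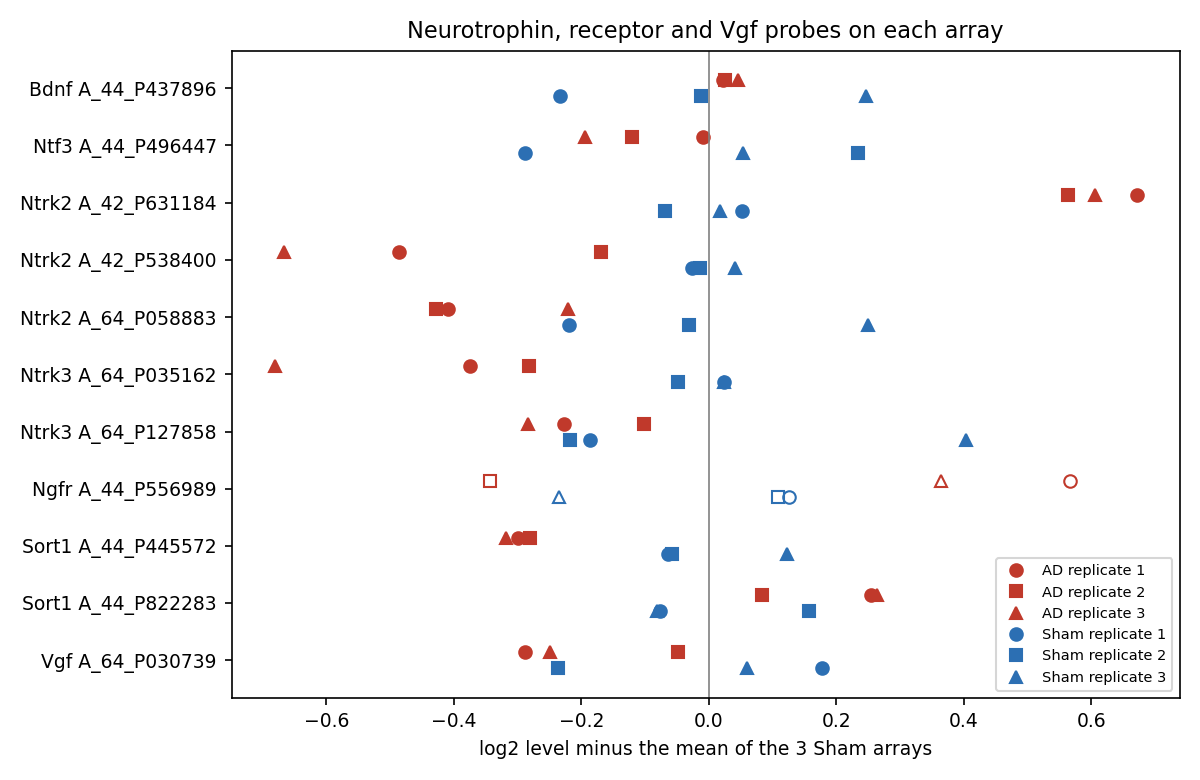
Level of each of the 11 probes on each array, as log2 level minus the mean of the 3 Sham arrays (horizontal axis). Each point is 1 array, with AD in red and Sham in blue, marker shapes for the replicate number and open markers for the Ngfr probe that was not tested. The 3 AD points of Ntrk2 probe A_42_P631184 lie to the right of all Sham points, and those of the other Ntrk2 probes lie to the left.

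Bdnf codes for the main neurotrophin of the adult hippocampus. Its probe (A_44_P437896, accession NM_012513) was printed on 10 spots per array, of which 9 remained on Sham replicate 1. The level was -1.50, -1.50 and -1.48 on AD replicates 1, 2 and 3 and -1.76, -1.54 and -1.28 on Sham replicates 1, 2 and 3. The 3 AD arrays were almost alike and lay inside the range of the Sham arrays. The SD over the samples was 0.0129 in AD and 0.240 in Sham (n = 3 each), and the SD over spots within 1 array ran from 0.0447 to 0.0963. The log2 change was 0.03 ± 0.13 (SE), with a 95% interval of -0.30 to 0.36 and a limma adjusted p of 0.899. The interval is not adjusted for the number of probes, and its bounds are not a detection limit. The smallest Bdnf change that would be called with 3 arrays a group was not tested. The direction was not settled, since 15 of 21 alternative analyses gave the same sign, with values from -0.09 to 0.15.

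Ntf3 codes for NT-3, the ligand of TrkC. Its probe (A_44_P496447, NM_031073) lay at -3.245, -3.356 and -3.430 on AD replicates 1, 2 and 3 and at -3.525, -3.001 and -3.182 on Sham replicates 1, 2 and 3. The lowest and the highest of the 6 values were both Sham arrays. The log2 change was -0.11 ± 0.15 (SE), with a 95% interval of -0.47 to 0.26 and a limma adjusted p of 0.662.

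Ntrk2 codes for TrkB, the receptor of BDNF, which is made as a full-length kinase and as shorter forms without the kinase. The array carried 3 Ntrk2 probes under 2 accessions, and which form each accession or probe detects is not given in the sources used here. Probe A_42_P631184 (NM_001163168) lay at 1.72, 1.62 and 1.66 on AD replicates 1, 2 and 3 and at 1.11, 0.98 and 1.07 on Sham replicates 1, 2 and 3. All 3 AD arrays stood well above all 3 Sham arrays, and the spread within each group was small. The log2 change was 0.61 ± 0.08 (SE), a fold of 1.53 with a 95% interval of 0.41 to 0.82 on the log2 scale, and the limma adjusted p was 0.0197.

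Both probes with the accession NM_012731 lay lower in AD. Probe A_42_P538400 had levels of 3.68, 3.99 and 3.50 on AD replicates 1, 2 and 3 and of 4.14, 4.15 and 4.21 on Sham replicates 1, 2 and 3. AD replicate 2 came closest to the Sham arrays, which were nearly equal to each other. Its log2 change was -0.44 ± 0.14 (SE, 95% interval -0.78 to -0.10), with a limma adjusted p of 0.0900. The size depended on the scaling, since the change was -0.24 with quantile normalization (limma adjusted p 0.224) and in the authors' value table (0.221). Probe A_64_P058883 had levels of 0.80, 0.78 and 0.99 on AD replicates 1, 2 and 3 and of 0.99, 1.18 and 1.46 on Sham replicates 1, 2 and 3. The groups only just failed to overlap, since AD replicate 3 and Sham replicate 1 were equal to 2 decimals. Its log2 change was -0.35 ± 0.14 (SE), with a limma adjusted p of 0.154.

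The difference between 2 probes of a gene on the same array is unchanged by any scaling that subtracts 1 value per array. This measure was chosen after the values of the Ntrk2 and Sort1 probes had been seen, and it was fitted with limma over all 2407 pairs of tested probes that share a named gene, of which 13.6% were called and 38.9% did not overlap. The log2 signal of A_42_P538400 minus that of A_42_P631184 was 1.95, 2.38 and 1.84 on AD replicates 1, 2 and 3 and 3.03, 3.17 and 3.14 on Sham replicates 1, 2 and 3. Every AD array had the smaller difference, with AD replicate 2 nearest to Sham. The change was -1.05 ± 0.16 (SE) on the log2 scale, a fold of 2.08 in the ratio of the signals, with a limma adjusted p of 0.0146. For A_42_P631184 minus A_64_P058883 the difference was 0.92, 0.84 and 0.67 on AD replicates 1, 2 and 3 and 0.12, -0.20 and -0.39 on Sham replicates 1, 2 and 3. Here every AD array had the larger difference, and the change was 0.97 ± 0.16 (SE) with a limma adjusted p of 0.0159. The 2 probes that share the accession NM_012731 differed from each other by amounts that overlapped between the groups, with a change of -0.09 ± 0.20 (SE) and a limma adjusted p of 0.802.

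**Figure D2:**
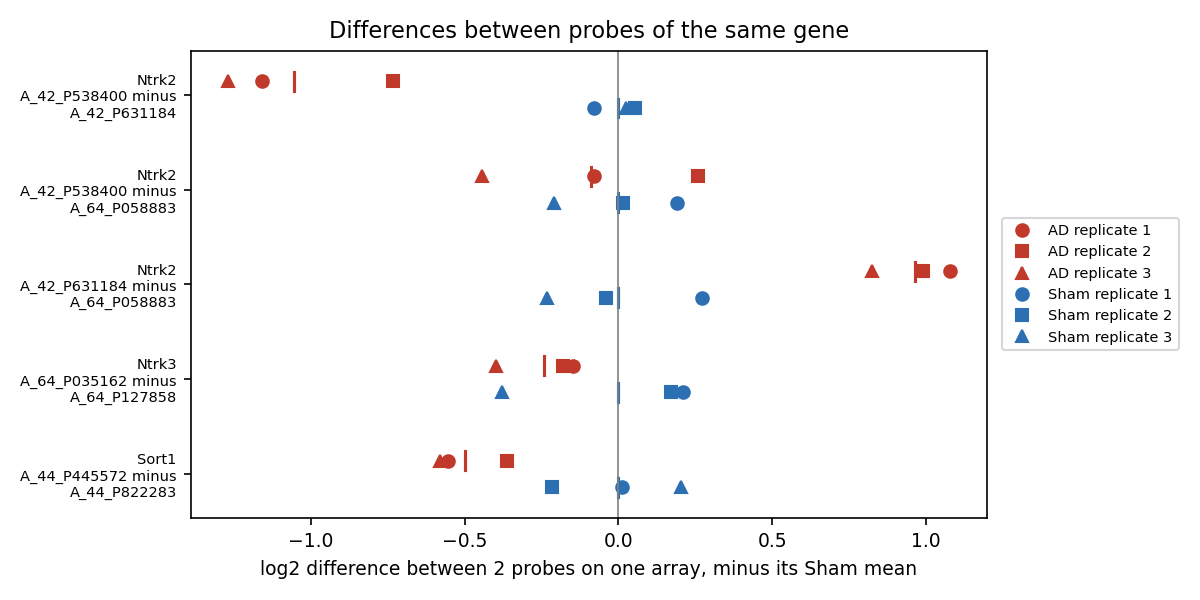
Log2 difference between 2 probes of the same gene on each array, minus its mean over the 3 Sham arrays (horizontal axis). Each point is 1 array and each vertical tick a group mean (AD red, Sham blue). Both Ntrk2 pairs that include A_42_P631184 separate AD from Sham, with changes of -1.05 and 0.97, and the Ntrk2 pair of equal accession overlaps.

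The call of A_42_P631184 was lost with scan as a random block (adjusted p 0.181 by limma) and on leaving out any replicate but Sham replicate 3 (0.0524 to 0.120). It was also lost with no filter on dim probes (limma adjusted p 0.0508) and with replicate number (0.0816) or slide position (0.0758) as a block. The change stayed between 0.56 and 0.71 in all 21 alternatives. Within day 1, without Sham replicate 3, it was 0.62 with a limma adjusted p of 0.0198. For A_42_P538400 minus A_42_P631184 the call was lost with scan as a random block (0.106), without AD replicate 1 (0.0796) and without AD replicate 3 (0.0692), and for A_42_P631184 minus A_64_P058883 also without AD replicate 2 (0.0518) and without Sham replicate 2 (0.0501).

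Ntrk3 codes for TrkC, the receptor of NT-3, and was measured by 2 probes of 1 accession (NM_019248). Probe A_64_P035162 lay at 3.73, 3.82 and 3.43 on AD replicates 1, 2 and 3 and at 4.13, 4.06 and 4.13 on Sham replicates 1, 2 and 3. All 3 AD arrays were below the narrow range of the Sham arrays, with AD replicate 3 the lowest. The log2 change was -0.45 ± 0.12 (SE, 95% interval -0.75 to -0.15), and the limma adjusted p was 0.0654. The size depended on the scaling, since the change was -0.25 with quantile normalization (limma adjusted p 0.168) and in the authors' value table (0.167). Probe A_64_P127858 lay at 1.24, 1.37 and 1.18 on AD replicates 1, 2 and 3 and at 1.28, 1.25 and 1.87 on Sham replicates 1, 2 and 3. Only Sham replicate 3 stood apart, and the other 5 arrays overlapped. Its log2 change was -0.20 ± 0.18 (SE) with a limma adjusted p of 0.489, and the change in the difference between both probes was -0.24 ± 0.18 (SE) with a limma adjusted p of 0.405.

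Ngfr codes for p75NTR, the receptor that binds all neurotrophins and their uncut forms. Its probe (A_44_P556989, NM_012610) was well above background on AD replicates 1 and 3 and on none of the Sham arrays. The level was -5.74, -6.65 and -5.94 on AD replicates 1, 2 and 3 and -6.18, -6.20 and -6.54 on Sham replicates 1, 2 and 3. The lowest value was AD replicate 2 and the highest was AD replicate 1, so the groups overlapped. No fold is given, because both groups lay at the edge of the background.

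Sort1 codes for sortilin, which sorts proteins in the cell and binds uncut neurotrophins beside p75NTR. Its 2 probes, both with the accession NM_031767, lay on opposite sides. Probe A_44_P445572 had levels of 0.57, 0.59 and 0.55 on AD replicates 1, 2 and 3 and of 0.81, 0.81 and 0.99 on Sham replicates 1, 2 and 3. The 3 AD arrays were close together and below all Sham arrays, with a log2 change of -0.30 ± 0.09 (SE) and a limma adjusted p of 0.0785. Probe A_44_P822283 had levels of 2.63, 2.45 and 2.63 on AD replicates 1, 2 and 3 and of 2.29, 2.53 and 2.29 on Sham replicates 1, 2 and 3. Here the groups overlapped through AD replicate 2 and Sham replicate 2, and the log2 change was 0.20 ± 0.11 (SE) with a limma adjusted p of 0.262. Within the same arrays, the first probe minus the second was -2.05, -1.86 and -2.08 on AD replicates 1, 2 and 3 and -1.49, -1.72 and -1.30 on Sham replicates 1, 2 and 3. The 3 AD differences lay below the 3 Sham differences, and the change of -0.50 ± 0.14 (SE) missed the threshold with a limma adjusted p of 0.0650.

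Vgf codes for a granule protein of neurons that BDNF induces. Its probe (A_64_P030739, NM_030997) lay at 3.85, 4.09 and 3.89 on AD replicates 1, 2 and 3 and at 4.32, 3.90 and 4.20 on Sham replicates 1, 2 and 3. AD replicate 2 and Sham replicate 2 lay on the far side of their groups, so the groups overlapped. The log2 change was -0.19 ± 0.14 (SE), with a 95% interval of -0.53 to 0.14 and a limma adjusted p of 0.381. With quantile normalization and in the authors' value table the change was 0.00, so no direction held.

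**Figure D3:**
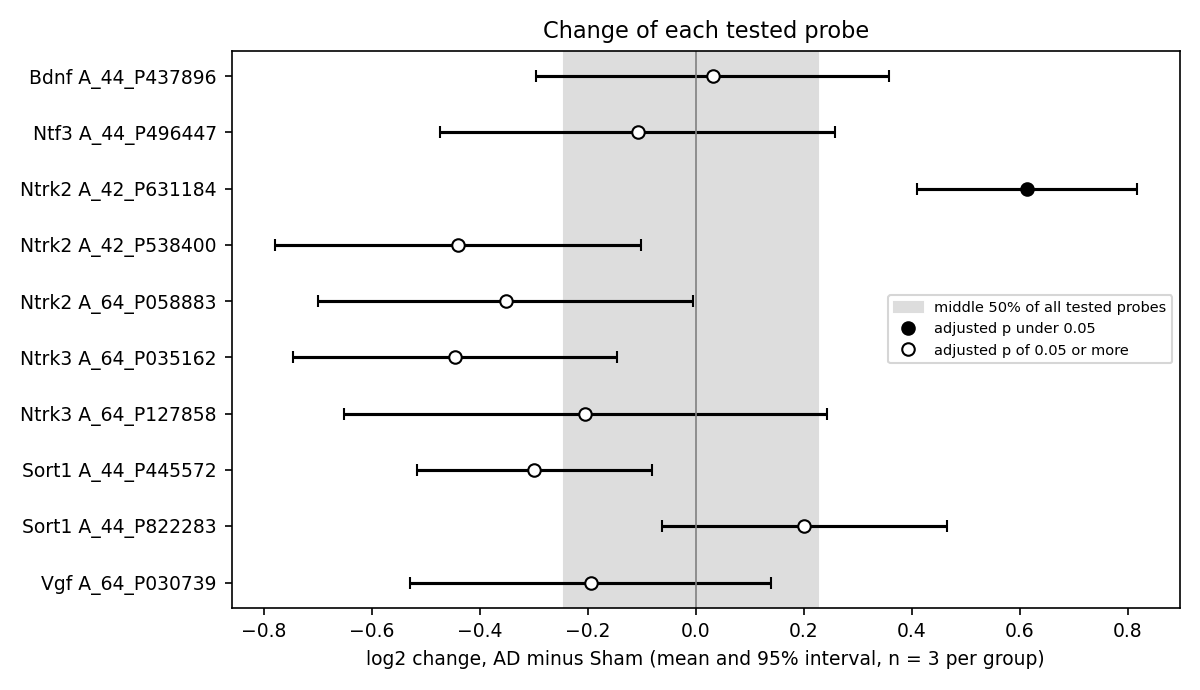
Log2 change (AD minus Sham, horizontal axis) of the 10 tested probes, with 95% intervals from limma and n = 3 per group. The filled point is the single probe with an adjusted p under 0.05 (Ntrk2 A_42_P631184, 0.61), and the grey band holds the middle 50% of all 22768 tested probes. The intervals of Bdnf, Ntf3 and Vgf include 0.

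Markers of other cell types moved on the same arrays, and their part in the results above was not tested. For the counts of called markers below, 4.08% of all tested named genes were called higher in AD and 10.6% lower, with 1 probe per gene. TrkB is made by neurons and, in its short form, by astrocytes. Of 8 astrocyte markers, with 1 probe each, none was called, though a second Slc1a3 probe fell by 0.43 with a limma adjusted p of 0.0286. The median change of the 8 markers was -0.18, with 3 higher and 5 lower on average in AD. Gfap had the largest change, 0.95 ± 0.43 (SE), with a limma adjusted p of 0.188. The brightest Aqp4 probe had a change of -0.24, and its other probes had 0.54 and 0.10. The summed level, in which bright probes weigh most, ran from 109 to 129 on the AD arrays and from 132 to 148 on the Sham arrays. The groups did not overlap in this sum, which also held for 39% of all tested probes taken singly. Of 7 markers of GABAergic interneurons, 3 fell (Gad1, Slc32a1 and Vip) and none rose, and their summed level was 37.0 to 40.9 in AD against 62.1 to 69.3 in Sham. Of 10 choroid plexus markers 9 were tested. None was called, and all 9 were higher on average in AD with a median change of 2.28. Their summed level of 82.3 to 144 in AD overlapped that of 27.4 to 103 in Sham, but Ttr, by far the brightest, weighed most in it. Taken singly, Ttr, Clic6, Otx2, Kl and Slc4a5 overlapped between the groups. Kcnj13, Folr1, Aqp1 and Sostdc1 were higher on all 3 AD arrays than on any Sham array. The median choroid plexus marker stood 3.01, 0.58 and 3.85 log2 units above the Sham mean on AD replicates 1, 2 and 3. AD replicate 2, where it was lowest among the AD arrays, was also the AD array nearest to the Sham mean for most tested neurotrophin probes. These were the Ntrk2 probes A_42_P538400 and A_42_P631184, both Ntrk3 probes, both Sort1 probes and the Vgf probe. For Bdnf and Ntf3 AD replicate 1 was nearest. For the Ntrk2 probe A_64_P058883 AD replicate 2 lay at 0.78, the AD array farthest from Sham. For the called Ntrk2 probe A_42_P631184 it lay at 1.62, above all Sham arrays. With 3 AD arrays some array is nearest for every probe, and a link with the choroid plexus markers was not tested. Of 5 microglia, 6 tested meningeal and 3 tested Schwann cell markers none was called. Of the markers of oligodendrocytes, their precursors, and endothelial cells and pericytes, 3 of 7, 1 of 4 and 2 of 7 rose and none fell with 1 probe each, but a second probe of the oligodendrocyte marker Mbp fell by 0.68 with a limma adjusted p of 0.0494, and a second probe of Mag rose by 0.34 with 0.0418.

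The other genes of neurotrophin biology were taken from 8 lists with 127 genes, of which 111 were tested with 1 probe per gene. Of these 111 genes, 9 rose and 8 fell, together 15.3%, against 14.7% of the 11949 tested named genes, of which 4.08% rose and 10.6% fell. The median change over the 111 genes was 0.03. With scan as a random block limma called none of them and no probe of the array, where 3659 probes had an unadjusted p under 0.05. Of the 17 called genes, 7 (Sorcs3, Scg5, Cadps, Sos2, Arc, Fos and Gfra2) kept their call under all 5 other scalings and background corrections. The other 10 lost it under at least 1 of them, Serpini1 and Npy under quantile normalization, and Scg3 and Junb under median scaling and normexp correction. Map2k5, Usf2, Egr1, Ret, Artn and Lifr lost it under normexp correction.

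Of 6 other tested neurotrophins, Trk and sortilin-family receptors, 1 fell and none rose, with a median change of 0.04. The gene that fell was Sorcs3, a sortilin-like receptor of synapses. It lay at 1.42, 1.64 and 1.37 on AD replicates 1, 2 and 3 and at 2.31, 2.44 and 2.52 on Sham replicates 1, 2 and 3, a change of -0.94 ± 0.11 (SE) with a limma adjusted p of 0.0184. A second Sorcs3 probe fell by 0.48 with a limma adjusted p of 0.0290. Ntf4, a further ligand of TrkB, had a change of -0.14 ± 0.87 (SE) with a limma adjusted p of 0.929 and was well above background on 1 AD and 2 Sham arrays.

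None of the 10 partners and effectors of p75NTR was called, and their median change was 0.14. The largest changes were 0.54 ± 0.20 (SE) for Lingo1, a co-receptor of the Nogo receptor, with a limma adjusted p of 0.125, and 0.43 ± 0.13 (SE) for the adaptor Traf6, with 0.0757. The value for Traf6 turned to -0.09 with normexp background correction. Of the 10 tested genes that cut proneurotrophins or hold those proteases back, 1 fell and none rose. It was Serpini1, which codes for neuroserpin, a neuronal inhibitor of tissue plasminogen activator. The change was -0.52 ± 0.11 (SE) with a limma adjusted p of 0.0340, and its other probe fell by 0.53 with a limma adjusted p of 0.0316. Mmp3 and Mmp9 were among those not tested.

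Of 9 granins and dense-core granule genes, the group to which Vgf belongs by its protein, 2 fell and 1 rose, with a median change of -0.12. Scg5, the chaperone of the convertase PC2, changed by -0.67 ± 0.12 (SE), with a limma adjusted p of 0.0266. Cadps, which primes granules for release, changed by -0.60 ± 0.10 (SE), with a limma adjusted p of 0.0243, but its other probe had a change of -0.11 and was not called. Scg3, a granule sorting protein, rose by 0.53 ± 0.13 (SE), with a limma adjusted p of 0.0472.

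Of 36 Trk adaptors and downstream kinases, 1 rose, 1 fell and 34 were not called, with a median change of -0.03. Sos2, an exchange factor that activates Ras, changed by -0.56 ± 0.11 (SE) with a limma adjusted p of 0.0293, although its other probe had a change of 0.11 and was not called. Map2k5, the kinase that activates ERK5, rose by 0.44 ± 0.08 (SE) with a limma adjusted p of 0.0271, and the change was 0.07 with normexp background correction. Of 12 tested transcription regulators that act on Bdnf, 1 rose and none fell, with a median change of 0.03. It was Usf2, an E-box binding factor, with 0.62 ± 0.11 (SE) and a limma adjusted p of 0.0270, and the call was lost with normexp background correction (0.29, adjusted p 0.181). Npas4 and Rest were not tested.

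Of 12 genes that BDNF induces in neurons, 4 rose and 1 fell, with a median change of 0.24. Over all tested named genes, with 1 probe per gene, 4.08% rose and 10.6% fell. Arc, which codes for a synaptic immediate early protein, lay at 2.93, 2.77 and 3.08 on AD replicates 1, 2 and 3 and at 1.37, 1.73 and 2.29 on Sham replicates 1, 2 and 3. All 3 AD arrays were above the Sham arrays, which were spread over almost a log2 unit. The change was 1.13 ± 0.24 (SE) with a limma adjusted p of 0.0361. The transcription factor Fos changed by 1.06 ± 0.13 (SE) with a limma adjusted p of 0.0184. The transcription factor Egr1 changed by 1.05 ± 0.17 (SE) with a limma adjusted p of 0.0227, a call that was lost with normexp background correction (0.36, adjusted p 0.209). Npy, a neuropeptide of interneurons, changed by -0.65 ± 0.15 (SE) with a limma adjusted p of 0.0425, but its other probe had a change of -0.32 and was not called. The other gene that rose was Junb, a partner of Fos, with 0.41 ± 0.10 (SE) and a limma adjusted p of 0.0455, and it is named here after its value was seen. The Bdnf probe itself had a change of 0.03 on the same arrays, with a 95% interval of -0.30 to 0.36. Whether BDNF had a part in the changes of this list was not tested.

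Of 16 other neurotrophic factors and receptors, 2 rose and 2 fell, with a median change of -0.04. Ret, the receptor kinase of the GDNF family, changed by 0.75 ± 0.10 (SE) with a limma adjusted p of 0.0201, but its other probe had a change of 0.15 and the call was lost with normexp background correction (0.32, adjusted p 0.175). Gfra2, the co-receptor of neurturin, rose by 0.48 ± 0.08 (SE) with a limma adjusted p of 0.0233, and its other probes had changes of 0.78 and 0.34 that missed the threshold. Lifr, the LIF receptor, and Artn, the ligand artemin, each changed by -0.49 ± 0.10 (SE), with limma adjusted p-values of 0.0335 and 0.0360. Gdnf and Gfra3 were not tested.

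**Figure D4:**
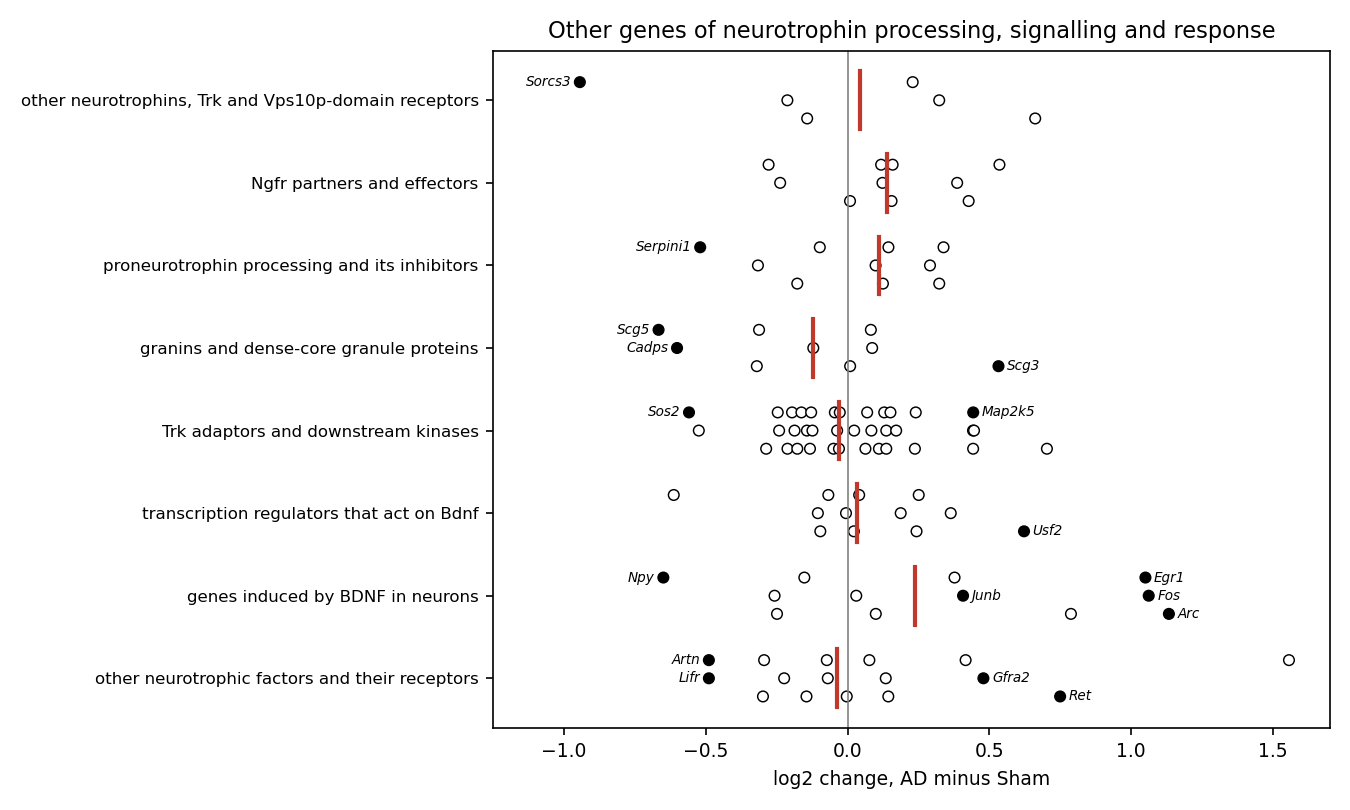
Log2 change (AD minus Sham, horizontal axis) of the 111 tested genes of 8 lists. Each point is 1 gene, filled and named where limma called it at an adjusted p under 0.05, and each red bar is a list's median. Vertical offsets within a list only separate the points. Filled points lie on both sides of 0 in 4 of the 8 lists, and the list of genes that BDNF induces has the highest median, 0.24.

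The genes whose levels followed a neurotrophin gene most closely over the 6 arrays were found by Pearson's r among 11892 tested named genes, using the brightest probe of each gene. All points share their arrays and scaling, and with 6 arrays and this many genes high values arise in any case, so these are descriptions. For Bdnf they were Cacna1h and Shpk, both with r of 0.992. For Ntf3 Dusp4 was among them (0.974). For Ntrk2, by probe A_42_P538400, they were Tmem243 (0.999) and Ezh1 (0.998). For Ntrk3, by probe A_64_P035162, they were Cdc45 (0.997) and Tex264 (0.994). For Sort1, by probe A_44_P822283, they were Optn (0.997) and Zc2hc1c (0.982), and for Vgf they were Ccdc124 (0.989) and Snrk (0.983).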

How the data were processed

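Scanner output of 6 arrays was used. Per the file headers, the authors made it with Agilent Feature Extraction 11.0.1.1, which gave a background-subtracted processed intensity for each of 44254 spots. The authors also deposited a table of log2 values, whose columns for AD replicates 2 and 3 matched each other's scanner output. It served as an alternative. Outlier spots (400 to 559 an array) and control spots were dropped, no spot was saturated, spots of a probe were averaged on the log2 scale, and the 75th percentile of each array was subtracted. A probe was well above background where at least 0.5 of its spots were, and was tested where this held on at least 3 arrays. Accessions without versions were matched to RefSeq symbols of GRCr8, and 15252 of 26997 matched. The array design rests on another build, so no probe coordinates are given. AD and Sham came from the sample titles and were compared by limma (version 3.58.1, under R 4.3.3; lmFit, then eBayes) in a model with no covariate, with Benjamini-Hochberg adjustment over 22768 probes and a threshold of 0.05. The fit was tested on simulated data. The number of arrays limits the precision.

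The 7 genes and all gene lists were chosen with earlier results of these data known. Named genes are all neurotrophin probes, up to 4 called genes of each list by size (1 probe per gene, the brightest on average), or the 2 largest changes where none was called, and the 2 genes most correlated with each neurotrophin gene. Alternatives were other scalings, normexp background correction (offset 50, on median spot signals), the filters, the variance models, the methods' t-test and its fold threshold, scan, scan day, replicate number and slide position as blocks, and leaving out each replicate. No scan held both groups, so scan as a fixed block could not be fitted. A few genes that this rule names are not reported here.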

Additional observations from a re-analysis of the deposited data

How the results depend on the processing

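Over the 21 alternative analyses of each probe, the direction was the same throughout for the Ntrk2, Ntrk3 and Sort1 probes, in 15 for Bdnf, in 20 for Ntf3 and in 19 for Vgf. Ntrk2 A_42_P631184 was called in 12 of them. These 21 are not independent checks. The filters, the trended and robust variance, the t-test and the blocks for replicate number and slide position left each probe's estimate unchanged. The direction was therefore fixed in advance there. Scan day as a fixed block and leaving out Sham replicate 3 gave the same fit, which is counted under both names. Against 2815 probes called over the array and 1 neurotrophin probe, limma called 1718 and 1 with normexp correction, 3457 and 2 with trended and robust variance (the added probe being Ntrk3 A_64_P035162), 10001 and 5 with array quality weights, and 4443 and 1 with scan day as a fixed block. The methods' t-test with adjustment called 1837 and 1, a fold of at least 2 with an unadjusted p under 0.05 gave 511 and 0, and the methods' t-test at those thresholds gave 326 and 0. Limma called 0 and 0 with no filter on dim probes, with scan as a random block and with slide position as a block, where 7079, 3659 and 6484 probes (4, 2 and 4 neurotrophin probes) had an unadjusted p under 0.05. Leaving out 1 replicate gave 0 to 4443 probes over the array and 0 to 1 neurotrophin probes. The highest counts were without Sham replicate 3, and 2 or fewer were called without any other replicate. The causes were not tested.

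The share of calls that were higher in AD was 33.6%, and it was 53.2% with the 75th percentile over probes detected on all arrays, 17.8% with normexp correction, 46.3% with array weights and 45.1% within day 1. Same-numbered AD and Sham samples share only a number: their deviations correlated with r of 0.03, 0.07 and 0.14, and AD replicates 2 and 3 correlated best with their own number while AD replicate 1 did not. With the replicate block limma called 0 probes over the array and 0 neurotrophin probes (6478 and 5 at an unadjusted p under 0.05), Ntrk2 A_42_P631184 had an adjusted p of 0.0816, and both Ntrk2 probe differences kept their calls (0.0416 and 0.0365). Scan moved with the groups, since no scan held both, so scan and group cannot be told apart beyond these blocks.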
